A study of Homo sapiens with 6 samples.

Results

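The 10 genes described here encode inverse BAR (I-BAR) proteins and subunits of the WAVE regulatory complex, which act on the plasma membrane and on actin at the leading edge of a cell. They are MTSS1, MTSS2 (once named MTSS1L), BAIAP2 and BAIAP2L1 among the I-BAR proteins, and WASF1, WASF2, WASF3, ABI1, NCKAP1 and CYFIP1 in the complex. They were selected by symbol from the 60624 genes of the deposited table, and 9 of them, all but WASF3, were among the 14778 tested genes, whose mean over the libraries was 1 TPM or more. The group was put together with the siCEP20 against siCTR differences of these same libraries known, and MTSS2 heads it for that reason. Its fold changes are therefore given as a description, without p-values.

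RNA was sequenced from A549, a long-used cell line grown from a human lung adenocarcinoma, to ask which transcripts differ when CEP20, a centrosomal protein, is depleted. In 3 samples (siCEP20) the cells were transfected for 3 days with small interfering RNA against CEP20, and in 3 samples (siCTR) with a control RNA. The sample labels name F-12K medium, a spin-column kit and a plasmid transfection, whereas the study's methods give DMEM, TRIzol and siRNA transfection. The labels do not say whether the 3 samples of a group came from separate cultures, so the errors and p-values below measure the spread between these samples, which may be technical.

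I-BAR proteins bind the inner face of the plasma membrane with a rigid, curved domain and push it outward into ruffles and filopodia, and several of them link the small GTPase Rac to actin regulators. The WAVE complex holds a WASF protein inactive together with ABI, NCKAP, CYFIP and BRK1 subunits. When Rac binds CYFIP the WASF tail is released and switches on the Arp2/3 complex, which branches the actin filaments of the lamellipodium of migrating cells.

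CEP20 was at 29.2, 30.5 and 35.1 TPM in the siCTR libraries and at 16.2, 15.3 and 17.3 TPM in the siCEP20 libraries. The siCEP20 mean was 51.4% of the siCTR mean (log2 fold change -0.92, adjusted p = 0.000205, limma). TPM divides by transcript length and library total, so levels can be compared between genes, but sequencing depth is unknown. From 14429 to 14600 genes reached 1 TPM in the siCTR libraries and from 14851 to 14987 in the siCEP20 libraries. Over all tested genes the log2 fold change had a median of 0.13, and 30.2% of them passed the test (adjusted p under 0.05) as higher and 13.2% as lower in siCEP20. With a fold change over 1.5 or under 0.67 as well, 11.2% were called higher and 4.61% lower. In 38.4% of tested genes all siCEP20 values lay above all siCTR values, and in 17.0% they lay below. Of 11 markers of A549 and epithelial cells 9 reached a mean of 1 TPM, while the lung lineage genes NKX2-1 and SFTPC stayed under 1 TPM in each library. The summed TPM of the epithelial markers was 8405 to 8702 in siCTR and 9824 to 10214 in siCEP20, where 7 of the 9 passed as higher and 2 (AKR1B10 and AKR1C1) as lower. The 5 fibroblast markers summed to 12.1 to 15.2 TPM in siCTR and 31.2 to 34.9 TPM in siCEP20, through COL1A1 and THY1, with DCN at 0 in each library. The 6 blood markers summed to 23.9 to 33.9 and 34.7 to 54.1 TPM. Of the pair that was expressed, CD68 was higher in siCEP20 (log2 fold change 0.79) and CD14 did not pass (-0.16), with CD3E, MS4A1 and HBB at 0. CD68 shares 81.6% of its exon bases with a long noncoding RNA gene on the same strand (ENSG00000264772, mean 22.9 TPM), so its value is uncertain. The 4 endothelial markers summed to at most 0.125 TPM. The part of these shifts in the values below was not tested. In bulk RNA, fewer cells of a type and less RNA per cell cannot be told apart.

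Promoters are shown for the 3 member genes with the largest log2 fold changes among those tested, MTSS2, ABI1 and BAIAP2L1, so that the letters upstream of genes that were higher together can be compared. Each is the RefSeq window (GRCh38.p14) from 250 bases before to 50 bases after the start, printed 5′ to 3′ on the gene's own strand, with the GC box (GGGCGG, or CCGCCC on the other strand) in capitals.
MTSS2, chr16:70686004-70686303, minus strand: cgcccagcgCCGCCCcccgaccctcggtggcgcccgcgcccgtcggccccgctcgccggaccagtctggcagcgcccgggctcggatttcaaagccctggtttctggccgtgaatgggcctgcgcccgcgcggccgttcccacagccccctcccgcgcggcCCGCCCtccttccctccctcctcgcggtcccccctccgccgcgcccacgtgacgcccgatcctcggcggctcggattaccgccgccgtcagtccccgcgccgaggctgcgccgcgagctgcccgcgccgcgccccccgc
ABI1, chr10:26860909-26861208, minus strand: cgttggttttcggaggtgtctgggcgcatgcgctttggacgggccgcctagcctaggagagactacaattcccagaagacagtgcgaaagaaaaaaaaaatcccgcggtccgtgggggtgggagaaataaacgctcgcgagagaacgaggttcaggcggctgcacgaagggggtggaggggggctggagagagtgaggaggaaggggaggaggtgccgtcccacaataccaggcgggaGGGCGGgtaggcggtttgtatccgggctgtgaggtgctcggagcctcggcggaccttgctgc
BAIAP2L1, chr7:98401041-98401340, minus strand: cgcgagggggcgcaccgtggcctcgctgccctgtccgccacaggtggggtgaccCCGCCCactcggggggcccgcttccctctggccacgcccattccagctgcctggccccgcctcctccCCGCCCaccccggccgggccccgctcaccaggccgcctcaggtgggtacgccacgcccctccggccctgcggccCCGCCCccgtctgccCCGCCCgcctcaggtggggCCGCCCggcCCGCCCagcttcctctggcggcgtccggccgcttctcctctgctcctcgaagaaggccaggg
The MTSS2 window held 2 GC boxes, the BAIAP2L1 window 6 and the ABI1 window 1, and 45.0% of all 35116 promoters of 300 bases held at least 1. Neither a CCAAT box (CCAAT, in 34.6% of promoters) nor a TATA box (TATAAA, in 11.5%) was found on either strand of these windows. GC content was 80.0% for MTSS2, 79.3% for BAIAP2L1 and 62.0% for ABI1, against a median of 58.7% over all promoters. The MTSS2 window had 51 CpG dinucleotides, the BAIAP2L1 window 32 and the ABI1 window 24, against a median of 14. A promoter entry was found for 8 of the 10 genes. Windows of members outside these 3 also lay above the median GC content, except for a CYFIP1 window at 51.7%. GC content was 75.3% for NCKAP1 (40 CpG dinucleotides), 75.0% and 77.0% for WASF3 and 67.3% for WASF1 (3 GC boxes). It was 61.3% to 76.3% for BAIAP2 and 51.7% to 76.3% for CYFIP1, which have several windows. BAIAP2 windows with 8 and 11 CpG dinucleotides and a CYFIP1 window with 10 lay below the median of 14. A link between these letters and the fold changes was not tested.

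MTSS2 (ENSG00000132613, chromosome 16 from 70661204 to 70686053, minus strand of hg38), an I-BAR protein that favours lamellipodial ruffles through Rac, differed most between the groups. It was at 15.8, 16.5 and 16.1 TPM in siCTR and at 53.1, 54.8 and 56.5 TPM in siCEP20. The groups were far apart, since the lowest siCEP20 value was 3.22 times the highest siCTR value, and the 3 libraries of each group lay close together, with coefficients of variation of 1.99% and 3.06%. The log2 fold change was 1.70 (standard error 0.0649), which stood at rank 31 of the 14778 tested genes. No expressed gene overlaps its exons. Of 122 tested genes of similar transcript length and GC content, 99.2% had a lower log2 fold change than MTSS2, and their median was 0.20.

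MTSS1 (ENSG00000170873), the closest relative of MTSS2 and a regulator of membrane protrusions, was expressed at a far lower level. Its TPM was 1.14, 0.85 and 1.23 in siCTR and 1.01, 0.96 and 1.499 in siCEP20. These ranges overlapped, with a log2 fold change of 0.05 (standard error 0.188) that turned negative under 5 of 14 alternatives, among them median-of-ratios scaling. MTSS1 shares 25.7% of its exon bases with NDUFB9, a gene on the opposite strand with a mean of 287 TPM. The strand setting of the quantification is not stated, so reads of such overlapping pairs may not be separated. The ratio of MTSS2 to MTSS1 was 13.1 to 19.3 in siCTR and 37.7 to 57.3 in siCEP20.

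BAIAP2 (IRSp53, ENSG00000175866), which joins Rac and Cdc42 to WAVE and to filopodium proteins, was at 27.2, 27.9 and 27.2 TPM in siCTR and at 33.9, 33.2 and 34.2 TPM in siCEP20. The groups did not overlap, and the log2 fold change was 0.29 (standard error 0.0624). BAIAP2L1 (IRTKS, ENSG00000006453), an epithelial relative of BAIAP2, had the highest level of the 10 genes in both groups. Its TPM was 76.9, 82.7 and 84.9 in siCTR and 102.2, 111.3 and 113.3 in siCEP20. Here too each siCEP20 value lay above each siCTR value (log2 fold change 0.41, standard error 0.0662), and 16.5% of its exon bases overlap BRI3 on the opposite strand (mean 195 TPM). BAIAP2L2, the remaining I-BAR gene and not a member of the group, had a low and overlapping level of 3.22 to 4.45 TPM in siCTR and 4.22 to 6.08 TPM in siCEP20 (log2 fold change 0.29, adjusted p = 0.170, limma).

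The 5 I-BAR genes together gave 130.2 ± 4.32 TPM in siCTR and 203.8 ± 7.51 TPM in siCEP20 (SD, n = 3 each). Within this sum MTSS2 made up 12.6%, 12.6% and 12.1% in siCTR and 27.2%, 26.6% and 26.9% in siCEP20. The MTSS2 share thus differed by 14.5 percentage points, with an SD of 0.307 and 0.316 points within the groups. BAIAP2L1 remained the most abundant I-BAR transcript, with a mean share of 62.6% in siCTR and 53.4% in siCEP20. BAIAP2 went from 21.1% to 16.6%, so that in siCTR it was above MTSS2 and in siCEP20 below it. The ratio of MTSS2 to BAIAP2 was 0.589 ± 0.00599 in siCTR and 1.62 ± 0.0473 in siCEP20. These shares are computed within a library and do not depend on a single scaling factor per library. Quantile normalization and the length and GC correction shift genes of a library by different amounts, and the shares were not recomputed under them.

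**Figure D1:**
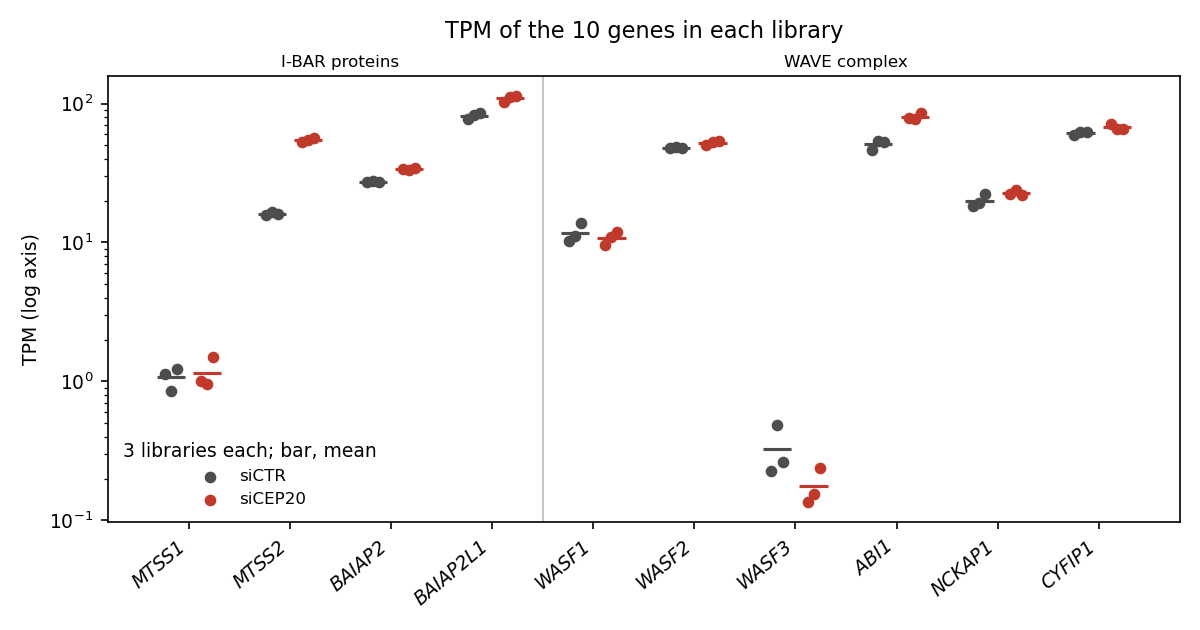
TPM of each of the 10 genes in each library, on a log axis, with siCTR libraries in grey and siCEP20 libraries in red, and a bar at the mean of 3 libraries. MTSS2 goes from near 16 TPM to near 55 TPM, BAIAP2, BAIAP2L1 and ABI1 are separated by smaller steps, and MTSS1, WASF1, WASF3 and NCKAP1 overlap.

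Among the WASF genes, which encode the Arp2/3-activating subunit, WASF2 (ENSG00000158195) was the main transcript. WASF2 was at 48.0, 48.4 and 48.1 TPM in siCTR and at 50.3, 52.6 and 53.8 TPM in siCEP20. The groups were separate by a small step, and the log2 fold change of 0.11 (standard error 0.0592) turned to -0.04 under median-of-ratios scaling. WASF1 (ENSG00000112290), the form best known from neurons, was at 10.2, 11.1 and 13.9 TPM in siCTR and at 9.62, 10.9 and 11.8 TPM in siCEP20. The WASF1 ranges overlapped (log2 fold change -0.10, standard error 0.128), and the sign turned without siCTR replicate 3, to 0.01. WASF3 (ENSG00000132970) stayed under 1 TPM throughout, with 0.23, 0.49 and 0.26 TPM in siCTR and 0.14, 0.16 and 0.24 TPM in siCEP20, and was not tested. The summed WASF level was 60.2 ± 1.91 TPM in siCTR and 63.2 ± 2.95 TPM in siCEP20 (SD, n = 3 each), with overlapping groups. WASF2 made up 77.3% to 82.1% of it in siCTR and 81.7% to 83.7% in siCEP20.

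ABI1 (ENSG00000136754, chromosome 10 from 26746593 to 26861087, minus strand), the adaptor that ties WASF to the rest of the complex and to Abl kinases, stood apart from the other subunits. ABI1 was at 46.3, 54.0 and 52.7 TPM in siCTR and at 79.1, 77.6 and 84.9 TPM in siCEP20. All siCEP20 values lay above all siCTR values, with a log2 fold change of 0.65 (standard error 0.0761). This is above the fold-change threshold of 1.5, but under median-of-ratios scaling (0.50), quantile normalization (0.57), the length and GC correction (0.47) and without siCTR replicate 1 (0.58) it is below it. Only 4.88% of ABI1 exon bases overlap a gene on the other strand, PDSS1, and 93.2% of 444 genes of similar length and GC content had a lower log2 fold change.

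Its paralog ABI2, not a member of the group, was at 25.1, 28.2 and 48.8 TPM in siCTR and at 47.6, 28.6 and 30.0 TPM in siCEP20. One library of each group was high (siCTR replicate 3 and siCEP20 replicate 1), so no difference between groups could be read (log2 fold change 0.08, adjusted p = 0.832, limma). ABI2 shares 38.1% of its exon bases with RAPH1. ABI3, the third paralog, and NCKAP1L, the blood cell form of NCKAP1, were listed at 0 in each siCTR library and did not exceed 0.188 TPM in siCEP20.

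NCKAP1 and CYFIP1 encode the pair of large scaffold subunits, and CYFIP1 carries the Rac binding sites. NCKAP1 (ENSG00000061676) was at 18.3, 19.3 and 22.2 TPM in siCTR and at 22.2, 24.04 and 21.96 TPM in siCEP20. The groups overlapped through siCTR replicate 3, with a log2 fold change of 0.18 (standard error 0.0904) that became -0.09 under the length and GC correction. CYFIP1 (ENSG00000273749) was at 59.5, 62.7 and 62.0 TPM in siCTR and at 71.3, 66.0 and 65.8 TPM in siCEP20. Its groups were separate by a small margin, and its log2 fold change of 0.14 (standard error 0.0614) turned to -0.02 under median-of-ratios scaling. CYFIP1 shares 22.2% of its exon bases with NIPA2 on the opposite strand. CYFIP2 was higher in siCEP20 in all pairs of libraries, at 21.6 to 24.3 against 25.4 to 29.5 TPM, and did not pass the test (log2 fold change 0.23, adjusted p = 0.0605, limma).

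BRK1, the smallest subunit of the complex and not a member of the group, differed in the other direction. It was at 164.6, 155.3 and 160.4 TPM in siCTR and at 135.6, 148.1 and 143.5 TPM in siCEP20. BRK1 fell by 0.17 on the log2 scale (adjusted p = 0.0416, limma), and this call was lost under 9 of 15 alternatives, including each of the 6 that leave out a library, with an adjusted p of up to 0.126.

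The subunits were also set against each other within libraries. ABI1 per summed WASF transcript was 0.793, 0.900 and 0.847 in siCTR and 1.32, 1.22 and 1.29 in siCEP20. ABI1 thus went from below the WASF sum in each siCTR library to above it in each siCEP20 library. CYFIP1 per summed WASF was 0.996 to 1.05 in siCTR and 0.999 to 1.19 in siCEP20, and NCKAP1 per summed WASF was 0.314 to 0.357 and 0.333 to 0.378. Both of these ratios overlapped between the groups. ABI1 per CYFIP1 was 0.779 to 0.861 in siCTR and 1.11 to 1.29 in siCEP20, and ABI1 per NCKAP1 was 2.37 to 2.80 and 3.23 to 3.87. BRK1 per summed WASF was lower, at 2.58 to 2.82 in siCTR and 2.18 to 2.33 in siCEP20. Among the ratios to the WASF sum the groups were therefore separate at ABI1 and BRK1, and these ratios were not tested. The ABI1 share of the ABI transcripts overlapped between groups, at 51.9% to 65.7% in siCTR and 62.4% to 73.8% in siCEP20. Protein levels were not measured here.

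**Figure D2:**
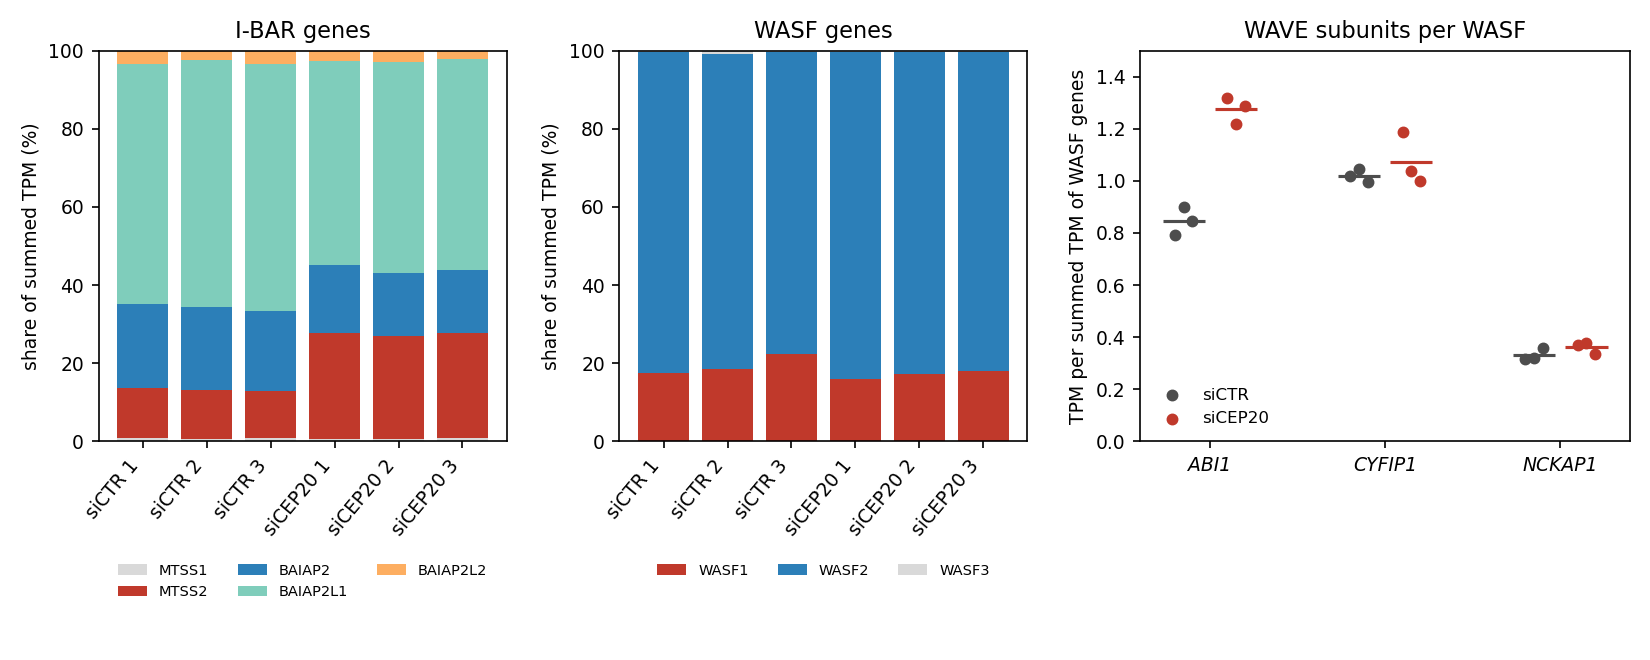
Shares in each library of the summed TPM of 5 I-BAR genes (left) and of 3 WASF genes (middle), and the TPM of ABI1, CYFIP1 and NCKAP1 per summed TPM of the WASF genes (right, bars at the mean of 3 libraries). The MTSS2 share is near 12% in siCTR and near 27% in siCEP20, and ABI1 moves from below 1 to above 1 while CYFIP1 and NCKAP1 overlap between groups.

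Ordered by mean TPM in siCTR, the 10 genes ran BAIAP2L1, CYFIP1, ABI1, WASF2, BAIAP2, NCKAP1, MTSS2, WASF1, MTSS1 and WASF3. Only ABI1 and WASF2 had overlapping values among neighbours of this order. In siCEP20 the order was BAIAP2L1, ABI1, CYFIP1, MTSS2, WASF2, BAIAP2, NCKAP1, WASF1, MTSS1 and WASF3, and among neighbours only MTSS2 and WASF2 overlapped. MTSS2 moved from the seventh place to the fourth and ABI1 from the third to the second.

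Of the 9 tested genes, MTSS2, BAIAP2, BAIAP2L1 and ABI1 passed as higher in siCEP20, a share of 44.4% beside 30.2% of all tested genes. MTSS2 and ABI1 also exceeded the fold change of 1.5, which 11.2% of all tested genes did. In 6 of the 9 the siCEP20 values lay above the siCTR values, beside 38.4% of all genes. Because the genes were chosen on this contrast, nothing is read from these counts or from whether a selected gene passed. The median log2 fold change of the 9 genes was 0.18, close to the 0.13 of all tested genes, so that their median relative to all genes was 0.05. BAIAP2 no longer passed under median-of-ratios scaling, quantile normalization or the length and GC correction, with log2 fold changes of 0.14, 0.16 and 0.13. MTSS2 remained the largest of the 9 under each of these scalings, at 1.55, 1.59 and 1.48, and over 15 alternatives it ranged from 1.48 to 1.76. BAIAP2L1 ranged from 0.25 to 0.46 and ABI1 from 0.47 to 0.69.

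**Figure D3:**
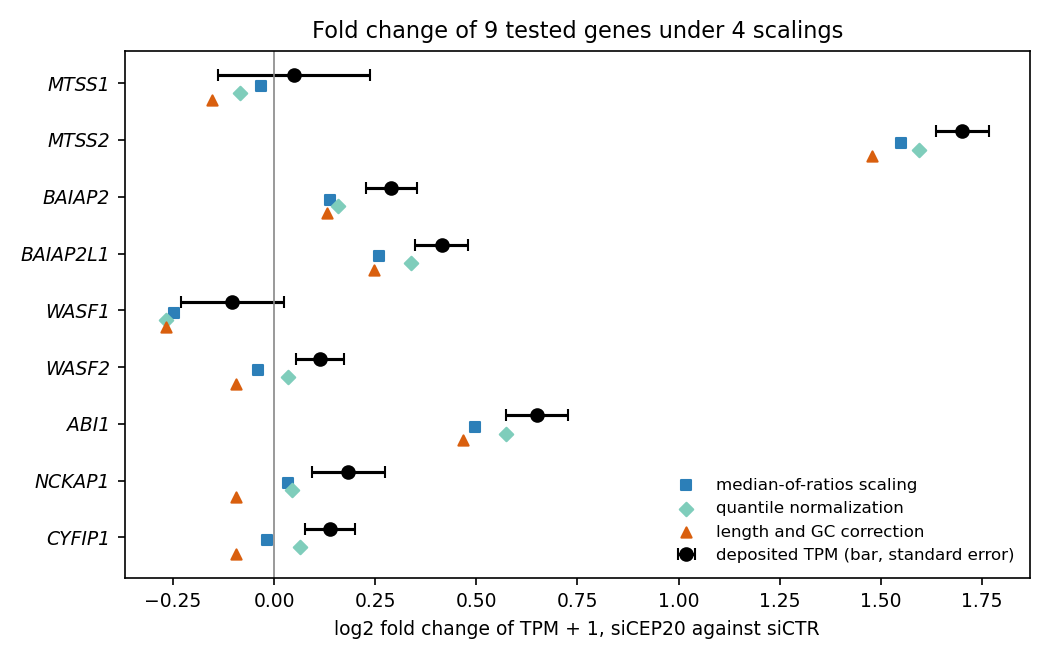
Log2 fold change of the 9 tested genes (siCEP20 against siCTR, on the scale of TPM + 1) from the deposited TPM with its standard error (black), and under median-of-ratios scaling, quantile normalization and the length and GC correction. MTSS2 lies at 1.48 or more in all 4, ABI1 and BAIAP2L1 stay above 0.2, and MTSS1, WASF2, NCKAP1 and CYFIP1 lie on both sides of 0.

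The WAVE complex and the I-BAR proteins work with other actin regulators, which were grouped in 7 lists of 143 genes, 121 of them tested. The lists were put together with earlier results of these data known. Their shares and adjusted p-values, here and below, are therefore a description. Of the 121 tested genes, 58 rose (47.9%, beside 30.2% of all tested genes), 12 fell (9.92%, beside 13.2%) and 51 did not pass the test. The median log2 fold change of the 121 was 0.26 (0.13 relative to all tested genes). Scaling moved these shares for the lists and for all genes alike. Under median-of-ratios scaling 35 of the 121 rose (28.9%, beside 19.7% of all tested genes) and 24 fell (19.8%, beside 21.8%). Under the length and GC correction 20.0% of all tested genes rose and 21.2% fell, and the counts under these settings below are to be read against those shares. The list of further I-BAR and WAVE complex genes is described above, with BRK1 lower among its 4 tested genes.

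Other nucleation promoting factors, which switch on Arp2/3, were listed together with proteins that bind them. Of the 13 tested genes of this list, 8 rose (61.5%, beside 30.2% of all genes) and 5 did not pass. Their median log2 fold change was 0.36. WIPF1, which binds and stabilises WASP proteins, was the gene called, going from 13.7 ± 1.24 to 22.4 ± 1.24 TPM (log2 fold change 0.67, adjusted p = 0.000781, limma). WIPF1 passed under all 15 alternatives, but under median-of-ratios scaling, quantile normalization and the length and GC correction it missed the fold-change threshold (0.47 at the smallest). WASL, WASHC4 and WASHC5 were among the others that rose, with log2 fold changes of 0.40 to 0.46. JMY also rose (0.42), but did not pass under 8 of 14 alternatives (adjusted p of up to 0.254). Under median-of-ratios scaling 4 of the 13 rose (30.8%), and without siCEP20 replicate 2 it was 5 (38.5%, beside 22.7% of all genes). WASHC1 and the WASHC2 genes have near-identical copies in the genome, so their values are uncertain.

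The Arp2/3 complex itself, the target of WAVE, was listed together with its inhibitors. Of the 15 tested genes of this list, 7 fell (46.7%, beside 13.2% of all genes) and 8 did not pass. The 7 were the subunits ARPC1A, ARPC1B, ARPC3, ARPC4 and ARPC5L and, among the inhibitors, CORO1A and CORO1B. The median log2 fold change of the 15 was -0.22, or -0.35 relative to all tested genes. Under median-of-ratios scaling 9 of 15 fell (60.0%, beside 21.8% of all genes), and under the length and GC correction 10 did (66.7%, beside 21.2%). ARPC1A, a subunit of the complex, went from 126.8 ± 8.43 to 83.1 ± 2.79 TPM (log2 fold change -0.60, adjusted p = 0.000305, limma). It shares 58.6% of its exon bases with a read-through gene on the same strand (ENSG00000284292, mean 19.0 TPM), and without siCTR replicate 2 or without siCEP20 replicate 1 it passed the test but not the fold-change threshold (-0.56 at the smallest). ARPC4 went from 152.7 ± 29.3 to 99.9 ± 15.6 TPM (log2 fold change -0.60, adjusted p = 0.0159), a call that was lost without siCTR replicate 1 and without the filter on low TPM (adjusted p of up to 0.0869), and that missed the fold-change threshold without siCTR replicate 2 or siCEP20 replicate 1. ARPC4 shares 20.8% of its exon bases with the read-through gene ARPC4-TTLL3 on the same strand. CORO1A, a coronin that restrains Arp2/3, was at a low level and went from 3.58 ± 0.782 to 1.61 ± 0.307 TPM (log2 fold change -0.81, adjusted p = 0.00785).

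Further Arp2/3 subunits were looked at after their values were seen. ARPC1B went from 395.3 ± 2.89 to 272.0 ± 11.5 TPM (log2 fold change -0.54, adjusted p = 0.000153, limma), short of the fold-change threshold, and shares 23.1% of its exon bases with the same read-through gene as ARPC1A. ARPC5 scattered widely, at 87.1, 177.1 and 86.8 TPM in siCTR and 45.4, 103.0 and 49.0 TPM in siCEP20, with replicate 2 high in each group, and did not pass (log2 fold change -0.84, adjusted p = 0.0899). It did pass without siCEP20 replicate 2, under the length and GC correction and with the replicate number as a block. The numbers were not taken to pair the samples. ACTR2 and ACTR3, the actin-related subunits, had log2 fold changes of -0.12 and -0.03 and did not pass. ACTR2 did pass as lower under median-of-ratios scaling (-0.28), quantile normalization (-0.17) and the length and GC correction (-0.31). ACTR3 did not pass under any of 15 alternatives. ARPC3 and ARPC5L passed as lower (log2 fold changes -0.22 and -0.41), short of the fold-change threshold. ARPC2 went the other way, from 313.4 to 341.0 TPM with separate groups, and did not pass (0.12, adjusted p = 0.0984, limma). ACTR3B overlapped between the groups (0.11). MTSS2 and ABI1 were thus higher in the same libraries in which ARPC1A and ARPC1B, but not all subunits, were lower.

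Rac and Cdc42 signalling, upstream of the I-BAR proteins and the WAVE complex, had 14 of 27 tested genes that rose (51.9%, beside 30.2% of all genes) and 2 that fell (7.41%, beside 13.2%). RAC1, which activates WAVE through CYFIP1, was at 217.4, 244.9 and 248.1 TPM in siCTR and at 429.6, 611.7 and 462.3 TPM in siCEP20 (log2 fold change 1.06, adjusted p = 0.00041, limma). ELMO1, part of a Rac exchange factor, went from 6.47 ± 0.369 to 15.1 ± 1.35 TPM (log2 fold change 1.10). RHOQ (TC10), a Cdc42 relative, and NCK2, an adaptor of the family after which NCKAP1 was named, rose by 0.95 and 0.73 on the log2 scale, and NCK2 missed the fold-change threshold under median-of-ratios scaling (0.58). RHOG, which acts through ELMO proteins on Rac, fell by 0.67, from 86.6 ± 2.69 to 54.1 ± 3.61 TPM (adjusted p = 0.000217). CDC42 itself did not pass, at 132.0 and 137.1 TPM. Among the alternatives CDC42 passed only under the length and GC correction, as lower (adjusted p = 0.0191, limma). Its log2 fold change was also negative under median-of-ratios scaling and without siCTR replicate 1. Under median-of-ratios scaling 10 of the 27 rose (37.0%, beside 19.7% of all genes) and 5 fell (18.5%, beside 21.8%), and under the length and GC correction 9 rose and 6 fell (33.3% and 22.2%).

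Among actin elongation and filopodium factors, 11 of 19 rose (57.9%, beside 30.2% of all genes) and 8 did not pass (median log2 fold change 0.34). Under median-of-ratios scaling 9 rose (47.4%, beside 19.7%) and 2 fell (10.5%, beside 21.8%). EPS8, an actin capping and bundling protein that binds BAIAP2 and ABI1, went from 26.3 ± 2.21 to 55.2 ± 3.65 TPM (log2 fold change 1.04, adjusted p = 8.36e-05, limma). ENAH (Mena), which lengthens filaments and binds BAIAP2, went from 57.8 ± 2.96 to 102.3 ± 5.93 TPM (log2 fold change 0.81, adjusted p = 0.000102). The formins FMNL1 and DAAM1 rose by 0.89 and 0.68 on the log2 scale, and APBB1IP, an adaptor of Rap1 and ENAH, by 0.85. ENAH missed the fold-change threshold under the length and GC correction (0.53), and DAAM1 under that correction and both other scalings (0.44 at the smallest). The related VASP did not pass, at 144.2 and 141.0 TPM. Among the alternatives VASP passed only under median-of-ratios scaling, as lower (adjusted p = 0.0306, limma).

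Capping, severing and turnover factors were divided, with 9 of 19 that rose (47.4%, beside 30.2% of all genes), 1 (DSTN) that fell (5.26%, beside 13.2%) and 9 that did not pass, and a median log2 fold change of 0.10 (-0.04 relative to all tested genes). Under median-of-ratios scaling 7 rose (36.8%, beside 19.7%) and 4 fell (21.1%, beside 21.8%), and the median was -0.06. CARMIL1, which removes capping protein from filament ends, was the gene called, from 12.7 ± 1.51 to 21.3 ± 1.03 TPM (log2 fold change 0.71, adjusted p = 0.000932, limma). It passed under all 15 alternatives and missed the fold-change threshold under median-of-ratios scaling, quantile normalization and the length and GC correction (0.50 at the smallest).

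The F-BAR and N-BAR proteins mostly bend membranes the opposite way to the I-BAR proteins, and 16 of 24 tested genes rose (66.7%, beside 30.2% of all genes) and 1 fell (4.17%, beside 13.2%). This count depended on the libraries and the scaling, since 5 rose (20.8%, beside 19.7% of all genes) and 3 fell under median-of-ratios scaling. Without siCTR replicate 1 or without siCEP20 replicate 2 the number that rose was 7 (29.2%, beside 24.3% and 22.7% of all genes). Without siCTR replicate 2 or without siCEP20 replicate 3 it was 9 (37.5%, beside 26.1% and 25.6%). FNBP1L (Toca-1) and FNBP1, which recruit N-WASP, rose by 0.82 and 0.78 on the log2 scale (adjusted p = 0.000466 and 0.00469, limma), and FNBP1 missed the fold-change threshold under the length and GC correction (0.58). SRGAP3, an inverse F-BAR protein that binds WASF1 and turns off Rac, was at 0.389 to 1.497 TPM in siCTR and 2.99 to 6.39 TPM in siCEP20 (log2 fold change 1.33, adjusted p = 0.00849), a call lost without the filter on low TPM. The difference in BIN3 (log2 fold change 0.73, adjusted p = 0.0350) did not pass under 8 of 15 alternatives.

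**Figure D4:**
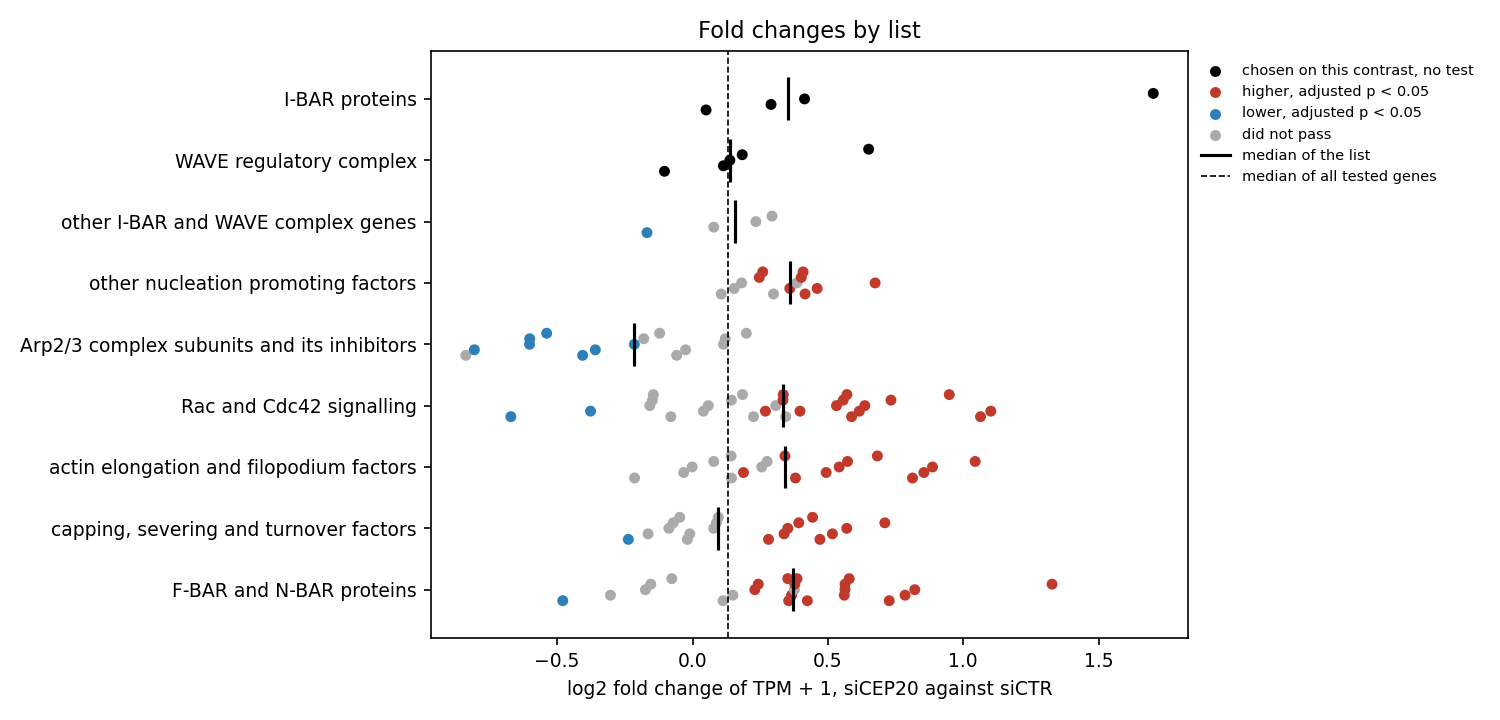
Log2 fold change of each tested gene (siCEP20 against siCTR, on the scale of TPM + 1) in the 2 groups of selected genes (black) and in 7 lists of related genes, in red where higher and in blue where lower at an adjusted p under 0.05 and in grey where the test was not passed. A black bar marks the median of each list and the dashed line the median of all tested genes, 0.13. The median of the list of Arp2/3 subunits and inhibitors, -0.22, lies to the left of the line, and MTSS2, at 1.70, has the highest value shown.

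The profile of MTSS2 over the 6 libraries was compared with that of each tested gene of these lists by the root mean square difference of the centred log2(TPM + 1) values. The nearest were ELMO1 (0.306), EPS8 (0.339) and RAC1 (0.356), all of which were higher in each siCEP20 library than in each siCTR library. Among the selected genes ABI1 was nearest, at 0.529, and WASF1 farthest, at 0.912. With 2 groups of 3 libraries, this measure follows mainly the size of the difference between the groups.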

How the data were processed

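Per the submitters' notes, the authors trimmed reads with fastp 0.20.1, aligned them to hg38 with HISAT2 2.1.0 and quantified them with StringTie 2.0. The authors deposited TPM per Ensembl gene for 3 siCTR and 3 siCEP20 libraries, normalized to length and library total. The annotation release and the strand setting are not given in the sources used here, and depth is unknown, so precision rests on the replicates. Columns were assigned to samples by name.

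Genes were named with GENCODE 44. Genes whose mean reached 1 TPM were tested as log2(TPM + 1) with limma 3.58.1 (R 4.3.3, lmFit and eBayes with a trend, two-sided, no rescaling, no block), with Benjamini-Hochberg adjustment over all 14778 genes. Fold changes on this scale understate low genes. A gene passed at an adjusted p under 0.05 and was called with a fold change over 1.5 or under 0.67 as well. The study's own test needs read counts, which were not used here. The settings varied were the pseudocount (0.1), the filter (none, or 5 TPM), the scaling (quantile normalization or median of ratios), the eBayes trend (left out), a replicate block, protein-coding genes, each library left out and, chosen after seeing the data, a length and GC correction (loess, span 0.5, in each library; 99.7% of tested genes had both values). The fit was tested on simulated data in which few genes were changed. It found 46.9% of 49 genes with a true log2 change of 0.6 and 85.4% of 48 genes with a change of 1. Of 14391 unchanged genes 9 passed. A gene that did not pass may therefore still differ, and a log2 change of 1 could be missed. In the real data 30.2% of tested genes passed as higher and 13.2% as lower, so these detection rates may not carry over.

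The members and lists were chosen with earlier results of these data known. The genes named were all members, CEP20, the other I-BAR and WAVE genes, in each list the called genes (at most the 5 with the smallest adjusted p) and the 3 genes with profiles nearest to MTSS2. Further genes (WASL, WASHC4, WASHC5, JMY, ARPC1B, ARPC2, ARPC3, ARPC5, ARPC5L, ACTR2, ACTR3, ACTR3B, CORO1B, CDC42, VASP, DSTN, and the markers and genes whose calls moved with the block) were named after their values were seen. Python 3.11.15, numpy 2.4.6, pandas 2.3.3 and matplotlib 3.10.9 were used.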

Additional observations from a re-analysis of the deposited data

How the results depend on the processing

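Of 121 tested pathway genes outside the members, 58 rose with the deposited TPM (47.9%, beside 30.2% of all tested genes). The number was 35 under median-of-ratios scaling (28.9%, beside 19.7%) and 34 under the length and GC correction (28.1%, beside 20.0%). With the fold-change thresholds it was 18, beside 11.2% of all tested genes called higher. The number that fell was 12 (9.92%, beside 13.2%). It was 24 under median-of-ratios scaling (19.8%, beside 21.8%) and 26 under the length and GC correction (21.5%, beside 21.2%). It was 20 under quantile normalization (16.5%, beside 19.9%) and 4 with the thresholds, beside 4.61% called lower. Of the selected genes, 4 passed as higher and 2 with the fold-change thresholds. These counts describe genes chosen on this contrast, and nothing is read from them. The median of all tested genes was 0.13 on the log2 scale from the deposited TPM and -0.01 under median-of-ratios scaling. Leaving out 1 library in turn gave 40 to 57 pathway genes that rose (33.1% to 47.1%, beside 22.7% to 29.3% of all tested genes). It gave 11 to 13 that fell (9.09% to 10.7%, beside 10.1% to 11.7%) and 4 to 5 selected genes that passed. It moved the difference in the MTSS2 share of the I-BAR transcripts between 14.3 and 14.7 percentage points. With the replicate number as a block (replicate block), 57 pathway genes rose (47.1%, beside 28.9% of all tested genes) and 12 fell (9.92%, beside 12.6%). With this block 4 selected genes passed. Of the pathway genes, 4 that rose (DIAPH1, DIAPH3, FER and GAS7) and 1 that fell (BRK1) no longer passed with the block, while 3 (WIPF2, CHN1 and SRGAP1) passed as higher and 1 (ARPC5) as lower. The numbers were not taken to pair the samples, since the deviations of same-numbered libraries correlated across genes at 0.157, -0.0614 and -0.0623. Depth is unknown, so counting error could not be assessed for genes near 1 TPM such as MTSS1.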
